A study of Mus musculus with 6 samples.

Results

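The comparison set 1 array of tissue labelled growth plate chondrocyte against 1 array of tissue labelled interdigital, both from mutant embryos, out of 6 arrays in the series. The arrays were identified by their sample titles. The growth plate title names Tgfbr2Prx1KO and the interdigital title Tbr2Prx1KO, which was taken here as the same mutant. The part of the mouse autopod, the hand or foot plate, between neighbouring digits and the cartilage of the digits were cut from frozen sections by laser-capture microdissection at E14.5, a stage at which the digits are separating. The mutant, Tgfbr2Prx1KO on a C57BL/6 background, by its name lacks Tgfbr2, the gene of the type II receptor for TGF-beta, in cells that have used the Prx1 promoter, which is active in limb mesenchyme and its descendants and not in overlying epidermis, endothelium or blood cells. The wild type littermates, also C57BL/6 at E14.5, gave the same 2 tissues and the interzone, the band of cells in which a joint forms, and the mutants gave an interzone array too. Embryos numbered 2 for each genotype, and whether the arrays pool them was not stated in the labels used here. The captured RNA was copied and amplified by PCR before 250 ng of product were labelled, so the levels below are those of amplified cDNA.

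Growth plate cartilage consists of chondrocytes that secrete type II collagen and the proteoglycan aggrecan under the transcription factors Sox9, Sox5 and Sox6, and that later enlarge, make type X collagen and signal through Indian hedgehog. Interdigital mesenchyme lies beside it, receives BMP and retinoic acid signals, carries Msx transcription factors and is mostly removed by cell death as the digits separate. TGF-beta acts through the type II receptor on matrix production and, in the digits, on the joint-forming interzone.

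The share of spots well above background was 72.3% to 88.3% over the 6 arrays, 81.8% on the array labelled mutant growth plate and 87.0% on the mutant interdigital one. The control growth plate array stood apart, with the lowest share, 72.3%, and a median signal of 103 units against 340 to 502 units on the others. Both mutant arrays compared here lay on slide 2, whereas the 3 control arrays and the mutant interzone array lay on slide 1, so within the mutant pair no slide difference entered. A level below is the log2 signal minus the 75th percentile of its array, a difference is the growth plate level minus the interdigital level, and a gene is represented by its brightest probe. Each difference rests on 1 array against 1 array, so no test was possible and no SD between samples exists. Probes spotted repeatedly on an array had a median SD of 0.099 (growth plate) and 0.089 (interdigital) on the log2 scale, which covers the reading of a spot and not the capture, the amplification or the animal. The descriptions of 5 samples name irradiated human blood, whereas their titles, organism and tissue labels name mouse limb, and the groups were taken from the titles.

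Of 19506 genes on the array, 17318 were well above background on both mutant arrays. At least 2-fold higher on the array labelled growth plate were 2302 genes (13.3% of those measured), 2798 (16.2%) were at least 2-fold higher on the interdigital array, and 12218 lay within 2-fold. The higher genes on the growth plate side thus made up 45.1% of the genes 2-fold apart, but 54.3% after quantile normalization, 54.7% with the deposited values and 55.2% with median centring, so neither tissue had the larger number of higher genes under all scalings. The median difference of all genes was -0.01, and it was 0.11 with quantile normalization, 0.15 with the deposited values and 0.16 with median centring. At 4-fold, 700 genes were higher on the growth plate side and 1082 on the interdigital side. A further 208 genes were well above background on the growth plate array only and 708 on the interdigital array only. At 2-fold, the larger interdigital number came from dimmer genes. Among the 4330 genes with the lowest mean level 626 were higher on the growth plate side and 1016 on the interdigital side. The next 4329 held 809 and 959, and the 4329 after those 607 and 595. The 4330 with the highest mean level held 260 and 228. The part of the growth plate array's lower detection in these counts was not tested. The 2 arrays correlated at r = 0.886 over genes, which share each array's amplification and are not independent replicates. The value was 0.724 for the arrays labelled growth plate in the mutant and control and 0.91 for the interdigital arrays of both genotypes. The control growth plate array, with low detection, correlated at only 0.709 to 0.757 with any other array, so the 0.724 was not particular to that label.

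**Figure D1:**
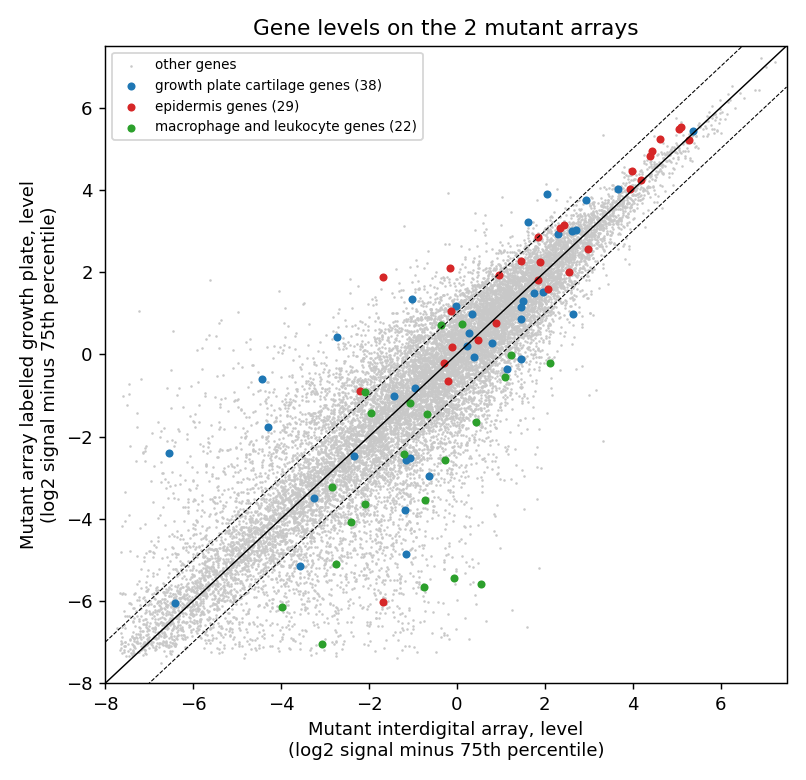
Level of each gene on the mutant interdigital array (x axis) and on the mutant array labelled growth plate (y axis), in log2 signal minus the 75th percentile of the array. Each point is 1 of the 17318 genes well above background on both, the solid line marks equal levels and the dashed lines a 2-fold difference. The 38 cartilage genes (blue) lie on both sides of the line, the epidermis genes (red) sit mostly close to it at high levels, and 15 of the 22 macrophage and leukocyte genes (green) lie below the lower dashed line.

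The gene set that defines a growth plate did not separate the 2 mutant arrays. Of 39 growth plate cartilage genes on the array, 38 were measured, 8 were at least 2-fold higher on the array labelled growth plate, against 13.3% of all genes, and 9 were at least 2-fold higher on the interdigital array, against 16.2% of all genes. Their median difference was 0.01, between -0.09 and 0.18 over all alternatives run. In the control pair 30 of 38 measured members were at least 2-fold higher in growth plate, against 24.8% of all genes, 3 were lower, against 24.9%, and the median difference was 2.84. The label growth plate chondrocyte of the mutant array therefore goes against its cartilage markers, and it is called the array labelled growth plate here. In captured tissue, fewer cells of a type and less RNA per cell cannot be told apart.

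Structural genes of the cartilage matrix had nearly equal levels on the mutant pair. Col2a1, which encodes type II collagen, was at 5.43 on the array labelled growth plate and 5.38 on the interdigital array, at 5.74 on the mutant interzone array, and at 7.96, 5.81 and 6.55 on the control growth plate, interdigital and interzone arrays. The control growth plate array was the highest for Col2a1 and the control interzone array the next, and another of its 3 probes went the other way in the mutant pair. Acan, the gene of aggrecan, was at 1.5 and 1.75 on the mutant pair and 0.65 on the mutant interzone array, against 5.31, 1.69 and 2.73 on the control arrays in the same order. For Col9a1, a chain of type IX collagen, the values were 1.16, 1.47 and 1.21 in the mutant and 5.65, 1.98 and 3.12 in the control. The other fibril and matrix genes Col9a2, Col9a3, Col11a1, Col27a1, Hapln1, Comp, Matn4 and Epyc differed less than 2-fold between the mutant arrays, with differences from -0.59 for Col11a1 to 0.82 for Comp. Col11a2, a chain of type XI collagen, was 2.32-fold higher on the growth plate side (1.18 against -0.03).

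A few matrix genes were lower on the array labelled growth plate than on the interdigital array. Matn3, a matrilin that links cartilage collagens and proteoglycans, was at -3.79 and -1.19 on the mutant pair, a 6.08-fold difference, against 3.41 and -1.53 on the control pair. Matn1, another matrilin, was at -2.53 and -1.07 (2.76-fold), against 5.16 and 0.15 in the controls. Both matrilins were thus lower on the mutant growth plate side and higher on the control growth plate side. Papss2, which makes the sulfate donor for proteoglycans, was 5.04-fold lower (-2.96 against -0.63), and Chad and Mia, secreted cartilage proteins, were 2.68-fold and 3.18-fold lower.

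The regulators of the chondrocyte programme did not move together. Sox9, the master regulator, was at -0.36 on the array labelled growth plate and 1.15 on the interdigital array, 2.85-fold lower, against 3.11 and 0.69 in the controls, although another of its 3 probes went the other way. Sox5 was also lower (-5.14 against -3.56, 2.99-fold), and Nkx3-2, a repressor that favours early chondrogenesis, was 13.0-fold lower (-4.86 against -1.15). In contrast Sox6 was 8.90-fold higher on the growth plate side (0.43 against -2.73), with another probe going the other way, and Foxa2, which acts in later cartilage, was 18.0-fold higher (-2.39 against -6.56). Fgfr3, the FGF receptor that restrains growth plate proliferation, was at 1.34 and -1.01 on the mutant pair (5.12-fold) and at 2.41 and -0.14 on the control pair. Fgfr3 and Foxa2 were higher on the growth plate side in both genotypes, as was Scrg1, 5.82-fold in the mutant (-1.76 against -4.30). In the control pair another probe of Fgfr3 went the other way.

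Slc26a2, the sulfate transporter needed for proteoglycan sulfation, was 14.4-fold higher on the array labelled growth plate (-0.59 against -4.43), whereas in the controls it was lower in growth plate (-5.51 against -4.30). Wwp2, a ubiquitin ligase whose gene hosts a cartilage microRNA, was 3.56-fold higher (3.89 against 2.06), and Chst11, which sulfates chondroitin, 3.01-fold (3.21 against 1.62). For Wwp2 and Chst11 at least 1 other probe went the other way. Ucma, a marker of upper growth plate chondrocytes, was not well above background on either mutant array.

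**Figure D2:**
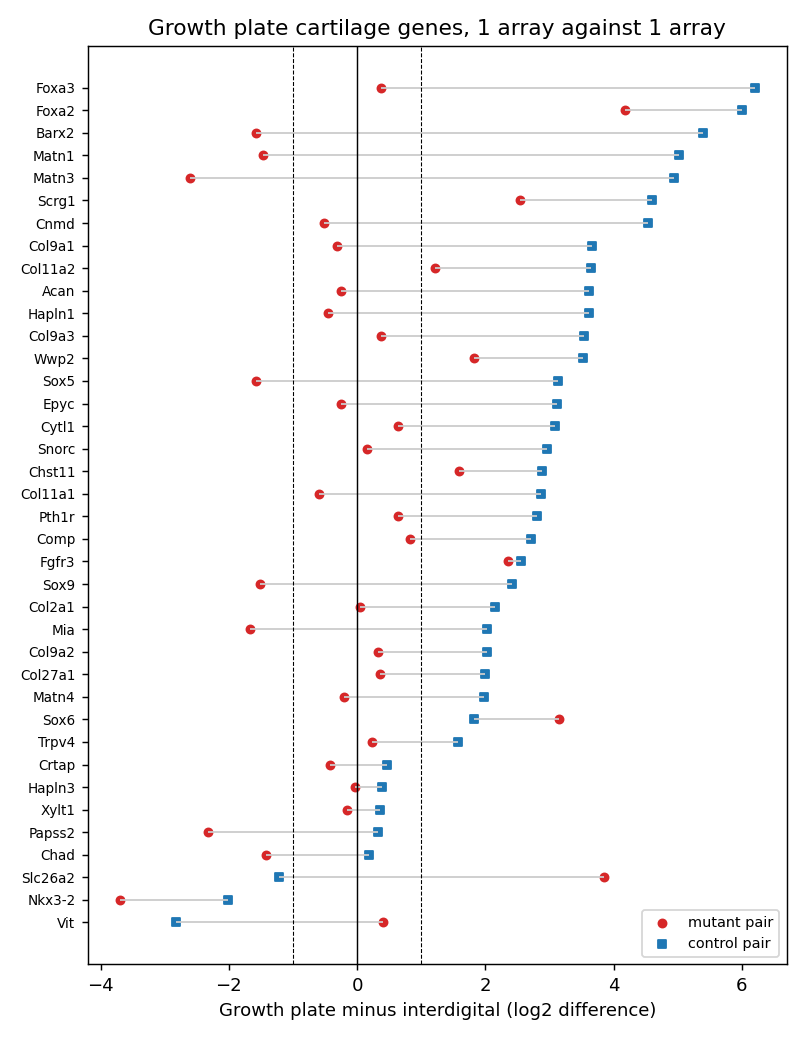
Difference between growth plate and interdigital tissue (x axis, log2) for the 38 measured growth plate cartilage genes, in the mutant pair (red circles) and the control pair (blue squares), each 1 array against 1 array, with dashed lines at 2-fold. The control values lie mostly to the right, with a median of 2.84, and the mutant values scatter around 0, with a median of 0.01.

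The cartilage genes of the array labelled mutant growth plate were also set against the 4 arrays outside the mutant pair, on each of which the median of all genes was itself somewhat higher. Relative to the control growth plate array, 2 of 38 members were at least 2-fold higher and 32 lower (22.3% and 32.1% of all genes measured on both, 54.4% either way), with a median of -3.11 against -0.44 for all genes. That control array is the one with low detection, and the pair also spans both slides. Without it, 5 members were higher and 21 lower than on the control interzone array (15.9% and 24.7% of all genes, 40.6% either way), with a median of -1.15 against -0.26 for all genes. Against the control interdigital array 6 were higher and 15 lower (12.9% and 21.6% of all genes), with a median of -0.36 against -0.21 for all genes. Against the mutant interzone array 7 were higher and 8 lower (18.3% and 21.1% of all genes), with a median of -0.23 against -0.16, so there the cartilage genes were close to the shares and the median of all genes. The median level of the 38 cartilage genes was 0.35 on the array labelled mutant growth plate, 0.31 and 0.55 on the mutant interdigital and interzone arrays, and 3.26, 0.46 and 1.08 on the control growth plate, interdigital and interzone arrays.

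Genes of later cartilage and of mineralization were measured less often. Of 16 prehypertrophic and hypertrophic genes 12 were measured, 2 were at least 2-fold higher on the growth plate side (13.3% of all genes) and 5 on the interdigital side (16.2% of all genes), with a median of -0.54. Ihh, Indian hedgehog, was at -1.21 and -0.70 on the mutant pair and at 3.40 and -0.27 on the control pair. Col10a1, type X collagen, was at -1.02 and -0.74 on the mutant pair and at 2.50 and -0.11 on the control pair. Neither gene was 2-fold apart in the mutant. The members on the growth plate side were Panx3, 2.06-fold, and Bmp6, 2.59-fold, with another probe of Bmp6 going the other way. Runx2 and Sp7, transcription factors of bone formation, were 3.05-fold and 2.57-fold higher on the interdigital side, and Alpl, the phosphatase of mineralizing matrix, 3.71-fold. Spp1, osteopontin, was well above background on the interdigital array only, which made it at least 28.2-fold higher there, and Vegfa, the main vascular growth factor, was 6.61-fold higher there (2.15 against -0.58), with another of its probes going the other way. On the control growth plate and interdigital arrays Spp1 was at 1.43 and -1.59, so it went the other way there. Ibsp, bone sialoprotein, was not well above background on either mutant array.

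Genes of interdigital mesenchyme were also divided. Of 31 on the array 30 were measured, 7 were at least 2-fold higher on the array labelled growth plate (13.3% of all genes) and 7 on the interdigital array (16.2%), and the median difference was -0.37, between -0.39 and -0.20 over the alternatives. Their median level was nevertheless higher on the growth plate array, at 0.46 against 0.07, so the summary over levels and the summary over differences differ in sign. Msx1, a BMP-responsive homeobox gene of undifferentiated limb mesenchyme, was at -3.22 on the array labelled growth plate and 0.08 on the interdigital array (9.90-fold), against -2.11 and 0.64 on the control pair. Lhx2, a LIM homeobox gene of limb outgrowth, was at -2.15 and 0.23 (5.24-fold), against -3.75 and -1.04 in the controls. Both were lower on the growth plate side in each genotype, and so were Msx2 (2.94-fold in the mutant) and the retinoic acid genes Rarb, a receptor (3.34-fold), Rdh10 (3.56-fold) and Aldh1a2 (2.48-fold), which make the ligand. Tbx3, a T-box repressor, was 13.1-fold higher on the interdigital side.

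Other interdigital genes lay on the growth plate side. Dkk1, a secreted Wnt antagonist, was at 2.08 and -1.38 on the mutant pair (11.0-fold), and at -2.79 and -1.35 on the control pair. Bmp2, a BMP ligand, was at 0.46 and -1.36 in the mutant (3.52-fold) and at -5.23 and -1.20 in the controls, and Sall1, a zinc finger gene of digit formation, was at 0.33 and -2.15 (5.57-fold) against -3.80 and -0.30. These 3 genes went opposite ways in the 2 genotypes. Irx3 and Irx5, homeobox genes of limb patterning, were higher on the growth plate side in both, 3.24-fold and 2.52-fold in the mutant. Bmp4, Bmp7, Hoxd13, Hoxa13, Tbx2, Grem1 and Crabp2 lay within 2-fold.

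Epidermal genes, which a capture of mesenchyme should lack, were high on both mutant arrays. All 29 genes of the epidermis list were measured, 5 were at least 2-fold higher on the array labelled growth plate, near the 13.3% of all genes, and 1 on the interdigital array (16.2% of all genes), with a median difference of 0.41 (0.36 to 0.58 over the alternatives). Krt10, a keratin of differentiating epidermis, was at 5.47 and 5.05 on the mutant pair and 5.48 on the mutant interzone array, against 3.88, -1.56 and -3.04 on the control growth plate, interdigital and interzone arrays. Krt14, a keratin of the basal layer, was at 4.83, 4.40 and 3.80 in the mutant and 3.35, 0.17 and 1.37 in the controls. Dsp, which encodes the desmosome protein desmoplakin, was at 4.23, 4.20 and 4.71 in the mutant and 3.28, -5.03 and 0.95 in the controls. For these genes the mutant arrays were alike, and the control interdigital and interzone arrays were below them. Against the control interdigital array, 20 of 25 measured epidermis genes were at least 2-fold higher on the array labelled mutant growth plate (12.9% of all genes), with a median of 4.66. Against the control interzone array 23 of 28 were (15.9% of all genes), with a median of 3.14. Against the control growth plate array 11 of 26 were (22.3% of all genes), with a median of 0.83, so epidermal signal was not confined to the mutant arrays. The list members that differed within the mutant pair were Krt19 (1.89 against -1.69, 11.9-fold), Lor (2.11 against -0.16, 4.80-fold), Esrp1 (2.50-fold), Krt17 (2.29-fold) and Tfap2c (2.00-fold) toward the growth plate label, and Ovol1 on the interdigital side (-6.03 against -1.68, 20.5-fold, with another probe going the other way). The median level of the list was 2.25 on the array labelled growth plate and 1.89 on the interdigital array. The part of epidermal RNA in the other differences of the mutant pair was not tested.

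Macrophage and leukocyte genes, of cells that clear dying interdigital tissue, had the median farthest from 0 of the 39 lists, toward the interdigital array. Of 24 on the array 22 were measured, 15 were at least 2-fold higher on the interdigital array (16.2% of all genes) and 2 on the array labelled growth plate (13.3%), with a median of -1.67 (-1.69 to -1.21 over the alternatives). With a stricter filter on dim probes 8 were higher on the interdigital array and 2 on the other. Laptm5, a lysosomal membrane protein of blood cells, was at -5.59 and 0.56 on the mutant pair (70.7-fold), -0.94 on the mutant interzone array, and 2.80, 0.41 and -4.22 on the control growth plate, interdigital and interzone arrays. Ctss, a protease of antigen presentation, was at -5.45 and -0.06 (41.9-fold), -1.45, and -2.07, -1.80 and -0.92 in the same order. Only the array labelled mutant growth plate had Ctss below -5, whereas Laptm5 was also low on the control interzone array. Csf1r, the receptor that macrophages depend on, was 7.09-fold lower (-3.55 against -0.72, with another probe going the other way), Spi1, their lineage transcription factor, 5.15-fold (-5.11 against -2.75), and Fcer1g and Tyrobp, signalling adaptors, 5.08-fold and 2.39-fold. Cd68 and Lyz2 were higher on the growth plate side, 2.07-fold and 2.27-fold, with another probe of Lyz2 going the other way. Mrc1, the mannose receptor of resident macrophages, was at least 35.8-fold higher on the interdigital array. In the control pair more members were also at least 2-fold higher in interdigital tissue (24.9% of all genes) than in growth plate (24.8%). Among them were Fcer1g, Tyrobp, Csf1r and Spi1, with control differences of -6.15, -5.97, -2.87 and -1.71. The others were Aif1, Fcgr3, Ptprc, C1qa, C1qb, C1qc, Cd14, Cyba and Coro1a. Only Laptm5, Mrc1, Adgre1 and Cd52 went the other way there by at least 2-fold, at 2.39, 2.12, 1.23 and 2.64.

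Endothelial and tendon genes had negative medians too. Of 24 endothelial genes 10 were at least 2-fold higher on the interdigital array (16.2% of all genes) and 4 on the array labelled growth plate (13.3%), with a median of -0.71. Flt4, the receptor of lymphatic vessels, was 22.0-fold higher on the interdigital array (-2.59 against -7.05), Cd34 12.4-fold and the sialomucin Emcn 4.40-fold. In contrast Sox17, an arterial transcription factor, was 10.3-fold and the receptor Kdr 3.43-fold higher on the growth plate side, so endothelial markers were split. Of 17 tendon and ligament genes 7 were at least 2-fold higher on the interdigital array (16.2% of all genes) and 0 on the other (13.3%), with a median of -0.75. Tnmd, tenomodulin, was at -7.17 and -3.56 on the mutant pair (12.2-fold) and at 1.15 and -1.88 on the control pair, and Kera, keratocan, was at -5.91 and -1.68 (18.8-fold) against 1.5 and -3.17. Both were higher in growth plate in the controls and lower there in the mutant. The weakest signal marked well above background on the array labelled mutant growth plate was -7.51, and Flt4 and Tnmd lay near it.

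In the nerve and Schwann cell list 7 of 17 measured genes were at least 2-fold higher on the interdigital array (16.2% of all genes) and 1 on the other (13.3%), with a median of -0.31. They included the neurofilament Nefl (14.4-fold) and Gap43, a growth cone protein (9.70-fold). Nefl, at -7.15 on the array labelled growth plate, was also near that array's weakest signal marked well above background. Skeletal muscle genes were divided 3 against 5 of 25, with Tnnt2 9.66-fold higher on the growth plate side, against another of its probes, and Myog 4.07-fold higher on the interdigital side, and erythroid genes 2 against 1 of 12. Both lists were within a few genes of the 13.3% and 16.2% of all genes. Of 5 melanoblast genes measured, Dct and Pmel were 7.77-fold and 3.42-fold higher on the growth plate side and Kit was 2.46-fold higher on the interdigital side.

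**Figure D3:**
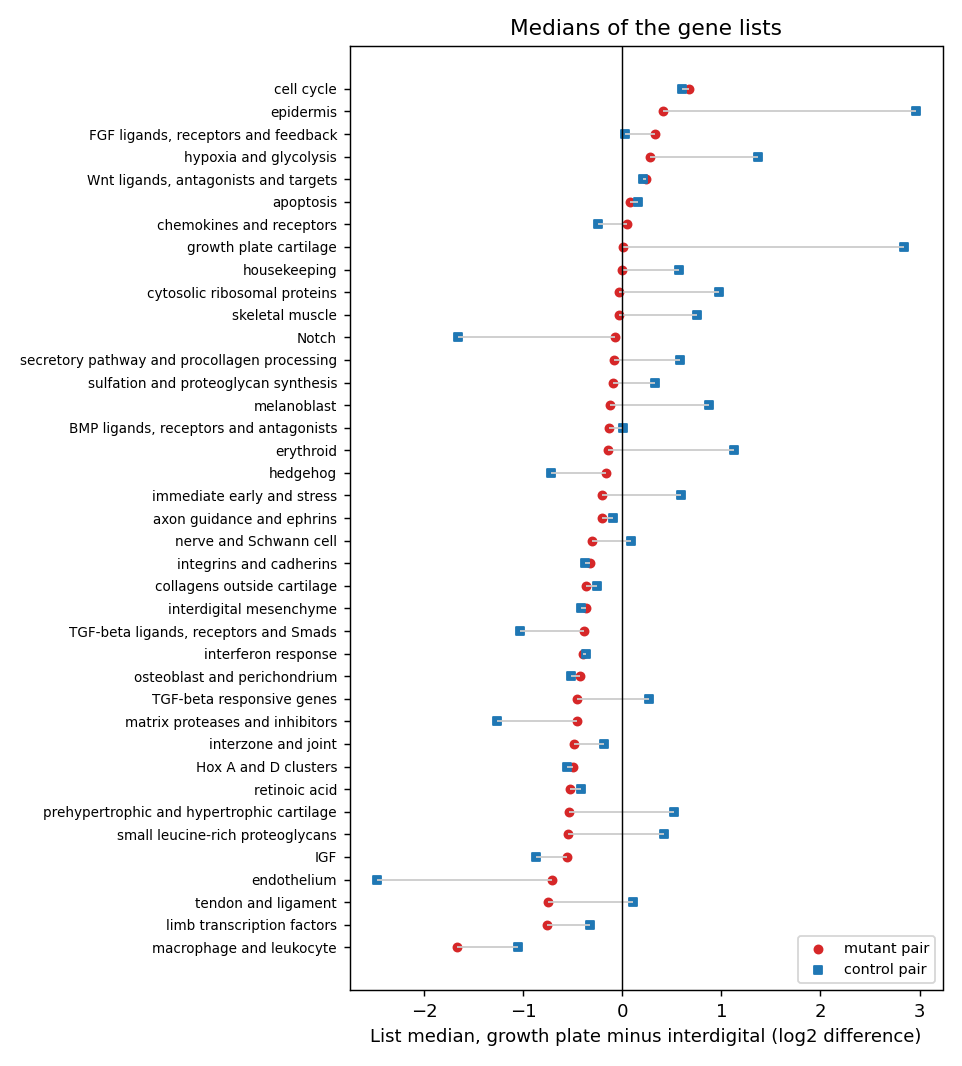
Median difference between growth plate and interdigital tissue (x axis, log2) over the measured members of each of the 39 gene lists (y axis), in the mutant pair (red circles) and the control pair (blue squares), ordered by the mutant median. The medians of 29 lists lay between -0.5 and 0.5 in the mutant pair, against 18 in the control pair.

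Genes of cell division were the list with the highest median on the growth plate side. All 29 were measured, 8 were at least 2-fold higher on the array labelled growth plate (13 with the deposited values or median centring), against 13.3% of all genes, and 0 on the interdigital array, against 16.2%, with a median of 0.67 (0.59 to 0.84 over the alternatives). Bub1b, a kinase of the spindle checkpoint, was at 1.67 and -0.60 on the mutant pair (4.85-fold), -2.56 on the mutant interzone array, and -0.29, -0.78 and 0.72 on the control growth plate, interdigital and interzone arrays. Mcm5 and Mcm3, subunits of the replicative helicase, were 3.21-fold and 2.91-fold higher, Ccna2, cyclin A2, 2.74-fold, Cdk1 2.14-fold and Pcna, the replication clamp, 2.07-fold. Another probe of Mcm3 went the other way. Mki67, a marker of dividing cells, was 1.97-fold higher (3.13 against 2.15). The cyclin-dependent kinase inhibitor Cdkn1c was 1.74-fold lower (4.12 against 4.92). In the control pair 11 of 28 were higher in growth plate (24.8% of all genes) and 4 in interdigital tissue (24.9%), with a median of 0.60.

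Tgfbr2, the targeted gene, had 3 probes that did not go the same way between the mutant arrays. Its brightest probe, on chromosome 9 from 115760364 to 115760423 in a build that the file headers do not name, was at 1.20 on the array labelled growth plate, 1.91 on the interdigital array and 2.22 on the interzone array of the mutant, and at -2.42, 2.49 and 2.42 on the matching control arrays. The other probes gave differences of -1.76 and 1.85. Where the probes lie relative to the deleted part of the gene was not determined, so these values do not check the genotype labels. Of 20 measured TGF-beta ligands, receptors and Smads, fewer were 2-fold apart than the 13.3% and 16.2% of all genes. On the growth plate side 1 was at least 2-fold higher, Acvrl1, an endothelial type I receptor (1.21 against -1.90, 8.62-fold), and 2 on the interdigital side, the ligand Tgfb2 (-4.09 against -0.90, 9.15-fold) and the co-receptor Eng (2.78-fold). Tgfb1, Tgfb3, Tgfbr1, Smad3 and Smad4 lay within 2-fold, and Smad7, an inhibitor, was not well above background on either array. Smad2 was well above background on the growth plate array only, at least 27.0-fold higher.

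Of 24 TGF-beta responsive genes 6 were at least 2-fold higher on the interdigital array (16.2% of all genes) and 2 on the growth plate side (13.3%), with a median of -0.46. Tgfbi, a secreted adhesion protein named for its induction by TGF-beta, was at -2.74 and 1.82 on the mutant pair (23.7-fold) and 0.83 on the mutant interzone array, against 3.72, 1.53 and 4.33 on the control growth plate, interdigital and interzone arrays. Eln, elastin, was at -0.87 and 3.17 (16.4-fold) and -0.52, against 3.24, 4.27 and 4.0. The array labelled mutant growth plate was the lowest of the 6 for both genes. Snai1, a repressor of epithelial genes, was 29.3-fold higher on the interdigital array (-1.31 against -6.18), and Ccn2, connective tissue growth factor, 3.06-fold (2.12 against 0.50). On the control growth plate and interdigital arrays Snai1 was at 0.24 and -0.82 and Ccn2 at 5.35 and 3.55, so both went the other way there.

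Among other signalling genes, Wnt genes were divided, with 11 of 39 at least 2-fold higher on the growth plate side (13.3% of all genes) and 7 on the interdigital side, near the 16.2% of all genes. Wnt16, a joint-associated ligand, was at 1.49 and -2.43 on the mutant pair (15.1-fold), -2.72 on the mutant interzone array, and -4.57, -5.01 and -4.81 on the control arrays. Lef1, a transcription factor of Wnt signalling, was at 3.38 and 0.64 (6.67-fold) against 1.43 and -1.99 on the control pair, and Axin2 and Nkd1, feedback inhibitors, were 3.62-fold and 5.79-fold higher. The ligand Wnt10b was 4.42-fold higher. On the interdigital side were Rspo2, a Wnt agonist (11.0-fold), the receptor Ror2 (7.43-fold), Dkk3 (6.47-fold) and Fzd9 (5.15-fold).

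FGF genes were divided 4 against 4 of 18 (13.3% and 16.2% of all genes). Fgf9 was at -5.59 and -0.77 on the mutant pair (28.2-fold) and at -3.63 and 0.84 on the control pair, and Fgf18, a ligand of Fgfr3, was at -5.80 and -1.28 (22.9-fold) and at -4.43 and -0.17. Both ligands were higher in interdigital tissue in each genotype, whereas Fgfr3 and the feedback phosphatase Dusp6 (0.91 against -1.79, 6.46-fold) were higher on the growth plate side. Hedgehog genes had 4 of 15 measured on both arrays higher on the interdigital side (16.2% of all genes) and 0 on the other (13.3%), while the ligand Shh, well above background on the growth plate array only, was at least 15.7-fold higher there. The interdigital genes included Hhip, which binds and restrains hedgehog ligands, 23.2-fold (-6.29 against -1.76) and Sufu, an intracellular inhibitor, 7.71-fold, each with another probe going the other way.

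BMP genes were divided 5 against 6 of 32, near the 13.3% and 16.2% of all genes, with Bmper, a BMP-binding protein, 17.2-fold and the receptor Bmpr1b 5.02-fold higher on the interdigital array, and Fst, an antagonist of activins, 2.39-fold higher on the growth plate side. Inhba, the activin A subunit, was well above background on the interdigital array only, at least 156-fold higher. Gdf5, the ligand that marks the joint interzone, was at 0.21 and 2.37 on the mutant pair (4.46-fold), 2.08 on the mutant interzone array, and 2.17, 1.20 and 4.33 on the control growth plate, interdigital and interzone arrays. Gdf5 was thus lowest on the array labelled mutant growth plate. In the interzone and joint list 3 of 25 were at least 2-fold higher on each side, at or below the 13.3% and 16.2% of all genes. Notch genes were near those shares, at 2 against 4 of 16, with Jag1 3.14-fold higher on the interdigital array. IGF genes were one-sided, with 0 of 15 at least 2-fold higher on the growth plate side (13.3% of all genes) and 5 on the interdigital array (16.2%). Igf2r was 3.06-fold higher there.

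Matrix genes outside cartilage were higher on the interdigital array more often than the reverse, where 16.2% of all genes were higher there and 13.3% on the growth plate side. Among proteases and their inhibitors 10 of 32 were at least 2-fold higher on the interdigital array and 1 on the growth plate side. Ctsk, the collagen-degrading protease of osteoclasts, was at -3.77 and 1.53 on the mutant pair (39.4-fold) and at 1.11 and 2.59 on the control pair. Htra1, a secreted serine protease, was 19.7-fold and Adamts5, an aggrecan-degrading protease, 6.46-fold higher on the interdigital array. Small leucine-rich proteoglycans had 6 of 14 higher there and 0 on the other side, among them Bgn, biglycan (0.92 against 2.84, 3.78-fold, with another probe going the other way). Collagens outside cartilage had 6 of 26 and 0, with Col14a1 8.04-fold and Col12a1 4.74-fold, both of tendon and fascia.

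Limb transcription factors had 6 of 33 at least 2-fold higher on the growth plate side (13.3% of all genes) and 13 on the interdigital side (16.2%), with a median of -0.76. Hand2, a posterior limb gene, was 4.85-fold higher on the interdigital array (2.17 against -0.11), and Pitx1, a hindlimb gene, was well above background on the interdigital array only within the mutant pair, at least 79.6-fold higher. Barx1, a homeobox gene of joint and facial mesenchyme, was 14.7-fold higher on the growth plate side (-1.71 against -5.59). Of 19 measured genes in the list of the Hox A and D clusters, which includes Evx2, 13 lay within 2-fold, about the 70.6% of all genes. Hoxd4 was 26.3-fold higher on the growth plate side (-1.0 against -5.72).

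Apoptosis genes were divided 5 against 5 of 23 (13.3% and 16.2% of all genes), with Apaf1 and Bid 4.07-fold and 4.08-fold higher on the growth plate side and Bmf 7.90-fold higher on the interdigital side. Another probe of Apaf1 went the other way. Glycolysis and hypoxia genes had a median of 0.28 in the mutant pair and 1.37 in the control pair, with Aldoc 7.38-fold higher on the growth plate side and Car9 25.7-fold higher on the interdigital side. Interferon genes had 5 of 18 higher on the interdigital array (16.2% of all genes), such as Irf9 (17.6-fold) and Isg15 (6.23-fold), and 2 on the other (13.3%), with Rsad2, an antiviral enzyme, 30.4-fold (-0.53 against -5.46), against another of its probes. Immediate early genes had 7 of 24 higher on the interdigital array (16.2% of all genes), between 2.15-fold for Ier3 and 2.79-fold for Dusp1, and 0 on the other side (13.3%).

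Genes used by every cell were close on the mutant pair, where 70.6% of all genes lay within 2-fold. All 26 cytosolic ribosomal protein genes lay within 2-fold, with differences from -0.45 to 0.44, and 15 of 16 housekeeping genes did, Hprt being 3.47-fold higher on the growth plate side. In the control pair 12 ribosomal protein genes were at least 2-fold higher in growth plate (24.8% of all genes), with a median of 0.98.

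Genes with the largest differences were mostly near the lower end of the signal on their dim side. Toward the growth plate, Upk3b, a uroplakin of epithelial surfaces, was at 1.06 and -7.24 (316-fold), and 0.11 on the mutant interzone array, and was not well above background on the control growth plate or interdigital arrays. Efcab11 was at 0.57 and -6.46 (130-fold), and Haspin, a mitotic histone kinase, at -1.01 and -7.59 (95.4-fold). The others were 2300002M23Rik (108-fold), Cabcoco1 (95.5-fold), Tigd5 (76.3-fold), Clec2g (73.5-fold), Zfp235 (72.4-fold), Hsbp1l1 (69.8-fold) and C1qtnf9 (68.6-fold). With normexp background correction in place of the scanner's processed signal, which draws dim values together, these 10 differences were 3.91 to 5.98 on the log2 scale instead of 6.10 to 8.30. Well above background on the growth plate array only were Slc5a11, a sugar transporter (at least 203-fold), 4932435O22Rik (at least 195-fold) and Zfp661 (at least 174-fold).

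Toward the interdigital array, Strada, a pseudokinase that activates LKB1, was at -6.63 and 1.60 (299-fold), but at -3.66 instead of -8.22 on the log2 scale with the mean over its 4 probes. Itga11, an integrin that binds collagen, was at -6.93 and 0.27 on the mutant pair (147-fold), -5.07 on the mutant interzone array, and -0.79, 1.34 and 1.92 on the control growth plate, interdigital and interzone arrays. Srpx, Adamts15 and Podn followed (179-fold, 142-fold and 136-fold) and are described with the control pair. Ppm1h (109-fold), Ppp1r36 (107-fold), Tram1l1 (101-fold), Exoc6 (96.7-fold) and Sap30, part of a histone deacetylase complex (96.2-fold), completed the 10. Under normexp these 10 differences were -6.25 to -4.32 instead of -8.22 to -6.59. Well above background on the interdigital array only were Olah (at least 364-fold), Pcbd2 (at least 361-fold) and E130102H24Rik (at least 290-fold).

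Tissues with the same labels were compared in the controls, on arrays that the mutant pair does not share, to see which differences recur. Of 16471 genes measured on the control pair, 49.7% were at least 2-fold apart, against 29.4% in the mutant pair, and the SD of the differences over genes was 1.94 against 1.28. Over 16076 genes measured on all 4 arrays, 1968 were at least 2-fold higher on the mutant growth plate side. Of these 613 (31.1%) were also at least 2-fold higher in control growth plate, where 24.6% of all these genes were, and 588 (29.9%) were at least 2-fold lower there, where 25.0% were. Of 2485 genes higher on the mutant interdigital array 986 (39.7%) were also higher in control interdigital tissue, where 25.0% of all were, and 584 (23.5%) were lower, where 24.6% were. In all 49.6% of these genes were at least 2-fold apart in the controls. The shared genes made up 15.5% of the 3950 control genes higher in growth plate and 24.5% of the 4020 higher in interdigital tissue. Over genes the differences correlated at r = 0.10 and rho = 0.09, a description only, since genes of an array share its amplification. The control side rests on the growth plate array with low detection, and no other control growth plate array exists to replace it.

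**Figure D4:**
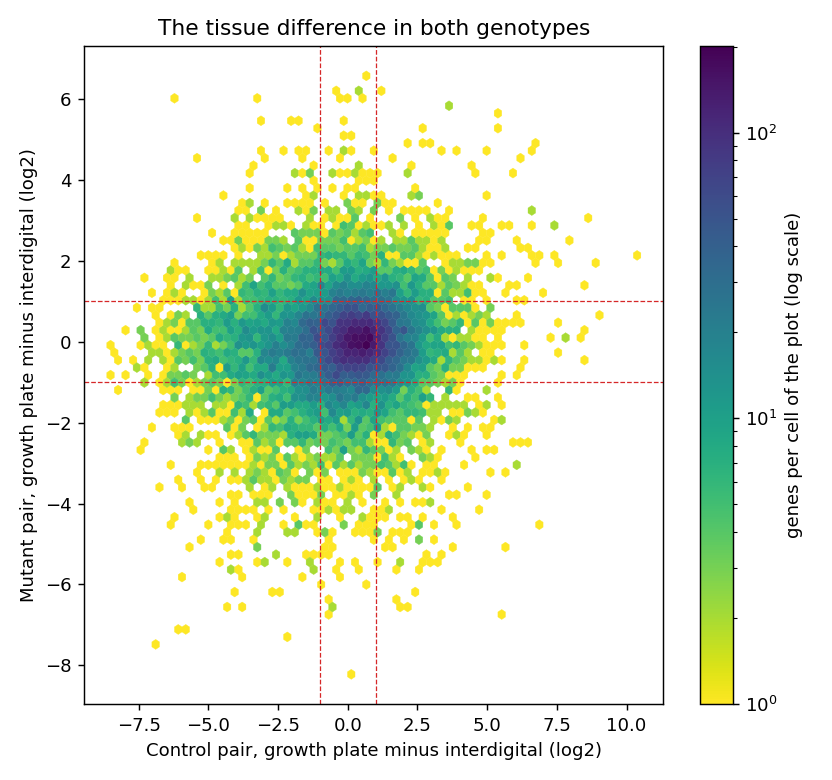
Difference between growth plate and interdigital tissue in the control pair (x axis) and the mutant pair (y axis), log2, for the 16076 genes measured on all 4 arrays, with colour for the number of genes per cell of the plot on a log scale and dashed lines at 2-fold. The cloud is wider along the control axis (SD 1.94 over the genes of that pair) than along the mutant axis (SD 1.28), and r was 0.10.

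Among genes higher on the growth plate side in both genotypes, Hopx, a small homeodomain protein without DNA binding, was at 1.54 and -4.05 on the mutant pair (48.4-fold), 2.18 on the mutant interzone array, and 1.94, -3.40 and -1.89 on the control growth plate, interdigital and interzone arrays. Psca, a surface antigen of epithelia, was at 3.92 and -0.19 (17.3-fold), 5.38, and 3.87, -0.62 and -0.17 in the same order. Mal, a membrane protein of epithelia and myelin, was at 3.12 and -1.20 (20.0-fold), 3.01, and 0.99, -3.32 and -9.23. These 3 genes were also high on the mutant interzone array and were lower on the control interzone array. Ccl12, a chemokine for monocytes, was at -0.82 and -6.60 (54.6-fold), -1.77, and 0.12, -3.62 and -8.24, the same arrangement. Kctd4 was at -0.50 and -5.32 (28.2-fold), -5.16, and 2.26, -4.27 and -3.48, so it was high on the 2 arrays labelled growth plate only. Sox6os, a transcript antisense to Sox6, was 13.1-fold higher in the mutant and 30.3-fold in the controls. The remaining genes of the 10 were Upk1b, a uroplakin (27.3-fold), S100g, a calcium-binding protein (60.5-fold), Alkbh3, a DNA repair enzyme (28.5-fold), and Srrm1, a splicing factor (10.4-fold).

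Toward interdigital tissue in both genotypes, Srpx, a secreted sushi-repeat protein, was at -6.23 and 1.26 on the mutant pair, -4.01 on the mutant interzone array, and -4.92, 2.05 and -0.06 on the control growth plate, interdigital and interzone arrays. Podn, podocan, a small leucine-rich proteoglycan, was at -5.21 and 1.88, -3.71, and -4.33, 1.83 and 2.18. Adamts15, a protease of the proteoglycan versican, was at -6.49 and 0.66, 0.57, and -5.38, 0.48 and 2.09, so only the 2 arrays labelled growth plate were low. Fgf9 and Fgf18, given above, belong to the same 10, as do Slc22a21, a carnitine transporter (59.8-fold), B630019K06Rik (34.2-fold), Gimap4 and Gmfg, both of blood cells (21.7-fold and 19.7-fold), and Zfp658 (21.0-fold).

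**Figure D5:**
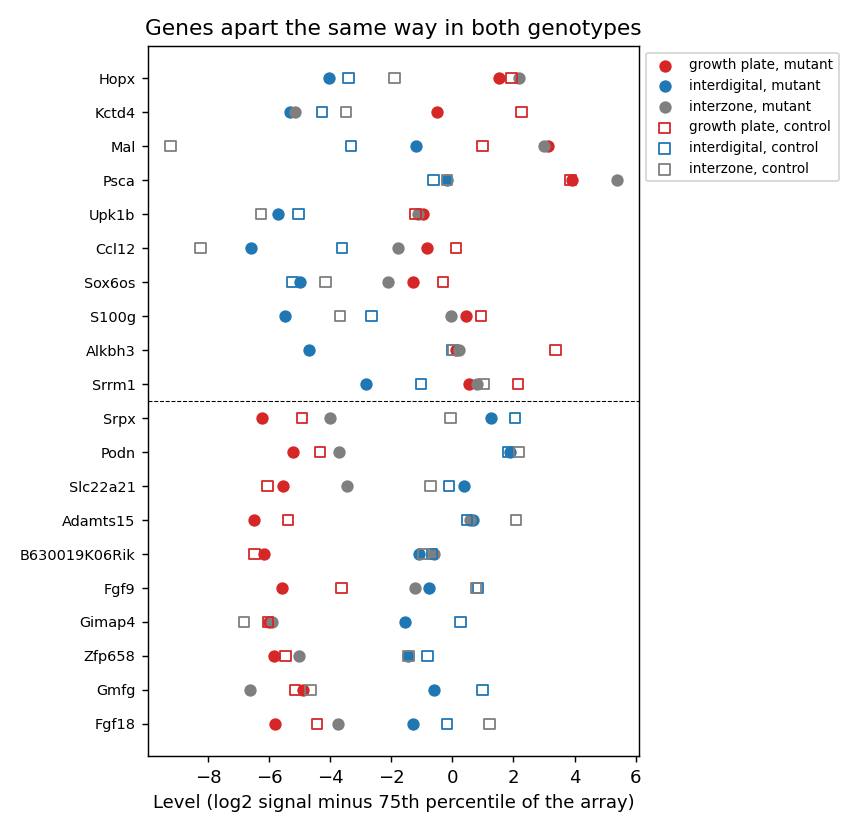
Levels (x axis, log2 signal minus the 75th percentile of the array) of the 20 genes apart the same way in both genotypes, on the 6 arrays, with filled circles for mutant and open squares for control, red for growth plate, blue for interdigital and grey for interzone. Above the dashed line the red symbols lie to the right of the blue ones of their genotype and below it to the left, while the grey interzone symbols fall on either side.

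Promoters are shown for 2 genes of each direction that recurred in both genotypes, picked after their values were seen from the 10 of each direction, to let the sequence be read beside the levels. The letters are the 250 bases before the transcription start, 5' to 3', from RefSeq in the build GRCm38.p6, in which 7 of the 10 genes of each direction had an entry. Capitals mark matches, on either strand, to the TATA box (TATAAA), the GC box (GGGCGG), the CCAAT box (CCAAT) or the core of SOX factor sites (ACAAAG), and none of these motifs overlap.
Hopx (chr5:77115124-77115373, minus strand): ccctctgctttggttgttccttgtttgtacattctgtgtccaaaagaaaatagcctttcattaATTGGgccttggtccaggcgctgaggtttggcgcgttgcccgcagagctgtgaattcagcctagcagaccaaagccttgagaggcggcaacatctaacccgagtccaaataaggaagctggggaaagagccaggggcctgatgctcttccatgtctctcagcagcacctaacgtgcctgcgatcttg
Ccl12 (chr11:82101595-82101844, plus strand): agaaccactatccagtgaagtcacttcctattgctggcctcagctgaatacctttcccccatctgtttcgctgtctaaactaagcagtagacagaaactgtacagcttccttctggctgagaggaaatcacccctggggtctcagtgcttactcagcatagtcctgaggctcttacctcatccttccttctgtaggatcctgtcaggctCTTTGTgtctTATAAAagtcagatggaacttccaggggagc
Srpx (chrX:10117641-10117890, minus strand): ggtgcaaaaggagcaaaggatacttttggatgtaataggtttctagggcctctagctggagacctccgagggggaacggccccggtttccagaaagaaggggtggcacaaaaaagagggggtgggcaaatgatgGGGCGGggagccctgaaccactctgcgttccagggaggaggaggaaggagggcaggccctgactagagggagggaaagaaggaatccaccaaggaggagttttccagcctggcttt
Podn (chr4:108031955-108032204, minus strand): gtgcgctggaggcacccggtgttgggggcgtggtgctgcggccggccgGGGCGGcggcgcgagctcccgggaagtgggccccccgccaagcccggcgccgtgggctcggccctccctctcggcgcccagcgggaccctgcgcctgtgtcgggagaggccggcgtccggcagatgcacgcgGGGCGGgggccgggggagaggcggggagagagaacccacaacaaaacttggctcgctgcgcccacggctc

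The Hopx window held a CCAAT box on the reverse strand, starting at position -187 counted from the transcription start. That of Ccl12 held a TATA box at -31 and, at -41, a SOX core on the reverse strand. Srpx had a GC box at -116, and Podn had GC boxes at -202 and -70. Over all 27025 promoters of the table a TATA box was in 13.0%, a GC box in 32.9%, a CCAAT box in 34.5% and a SOX core in 16.5%. Of the 7 matched genes higher in growth plate 1 held a TATA box, 2 a GC box, 2 a CCAAT box and 2 a SOX core, and of the 7 higher in interdigital tissue 0, 5, 2 and 1. A match describes these letters only.

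Levels of dim genes and of different probes set the limits of single values. Among the 4330 genes with the lowest mean level 37.9% were at least 2-fold apart, and among the 4330 with the highest 11.3%, with SDs over genes of 1.68 and 0.66. For genes higher on the growth plate side by their brightest probe, 59.5% of 1222 other measured probes went the same way, and for genes higher on the interdigital side 58.8% of 1340 did. These shares were close to the 55.8% over all 10125 other measured probes. At least 2-fold the same way were 32.7% and 35.4%, against 24.2% over all. Differences of the other probes correlated with those of the brightest probe at r = 0.15 over all, so single-gene differences seldom repeated across probes.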

How the data were processed

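Total RNA from laser-captured tissue was amplified by the SuperAmp procedure and read on one-colour (Cy3) arrays with Agilent Feature Extraction 9.5.1.1, per the file headers and the labels' protocols. The authors' deposited scanner files give the intensity of each spot, background-subtracted per the file headers, and the deposited value table gives a ratio, found to be that intensity divided by the array's median, with a column median of 1.0. Control spots and outlier spots were left out and repeat spots averaged, and the deposited intensity was taken to log2 minus the array's 75th percentile.

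Of 41147 probes, 23067 were named by accession, 6578 by symbol and 3069 by older symbol in a RefSeq table of GRCm38.p6, used for names only, and 8433 were left out. The brightest probe stood for a gene (10830 genes had 1 probe, 8676 several). A gene counted as measured when well above background on both arrays by the scanner software's mark. A gene seen on 1 side only has a bound, set against its own signal on the dim array or, where higher, that array's weakest signal marked well above background. With 1 array a group, differences of at least 2-fold are a description without p-values.

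Named genes were the 10 largest differences in each direction, where the brighter array reached the median of its probes well above background and no measured probe of the gene disagreed in sign, the 3 largest bounds, the 10 largest in both genotypes, the 5 that were opposite in the controls, members of 39 gene lists, and Tgfbr2. Promoters to print were chosen after values were seen. Members, lists and the comparison were chosen with earlier results of these data known. Alternatives were normexp background correction with offset 50 (limma 3.58.1, R 4.3.3), quantile normalization, the deposited values, other percentiles and centring, filters on dim probes, the mean over probes and a 4-fold threshold. Scripts ran in Python 3.11.15 with pandas 2.3.3 and numpy 2.4.6 and were tested on simulated data.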

Additional observations from a re-analysis of the deposited data

Results flagged for a closer look

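Of the genes at least 2-fold apart in both genotypes in opposite directions, the 5 with the largest mutant difference each way are listed here, as log2 growth plate minus interdigital. The difference between the genotypes was not tested, since each pair is 1 array against 1 array, and the control pair rests on the growth plate array with low detection. Higher on the mutant growth plate side were C1qtnf9, a secreted C1q-related protein (6.10 in the mutant, -6.16 in the controls), and Urb2, a ribosome biogenesis factor (4.32 and -3.45). Ndufv1, a subunit of respiratory complex I, was at 4.14 and -2.03, Asb4, part of a ubiquitin ligase, at 4.10 and -3.60, and Traf1, an adaptor of TNF receptors, at 3.71 and -1.57. Higher on the mutant interdigital side were Ppp1r36 (-6.74 and 5.60), Tmem237, a protein of the ciliary transition zone (-6.55 and 2.02), and A230057D06Rik (-6.32 and 1.81). Laptm5, a lysosomal protein of blood cells, was at -6.14 and 2.39, and Cul2, a ubiquitin ligase scaffold, at -5.60 and 2.66, the latter at -3.25 with the mean over its probes.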

How the results depend on the processing

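No paired analysis was possible because each group has 1 array, and no array could be left out of a pair. Genes higher on the growth plate side numbered 2302, and 700 at 4-fold. Genes higher on the interdigital side numbered 2798, but 1646 with the stricter filter on dim probes and 1082 at 4-fold. The percentage of genes apart that were higher on the growth plate side was 45.1, against 54.3 with quantile normalization, 54.7 with the deposited values, 55.2 with median centring and 39.3 at 4-fold. The percentage also apart the same way in the controls was 35.9, against 43.0, 43.6 and 44.0 with the same 3 scalings and 26.4 at 4-fold. Cartilage genes higher on the growth plate side numbered 8, but 5 with the stricter filter, with the mean over probes and at 4-fold, and those higher on the interdigital side 9, but 3 at 4-fold. The control cartilage median was 2.84, and 2.11 (quantile), 4.30 (deposited values) and 4.31 (median centring). The integrin and cadherin median was -0.33 and turned to 0.06 with the mean over probes; the cause was not tested for any of these. Of 312 list medians under alternatives 309 kept within the spread used, and all 46 named genes kept their direction where they could be measured, although normexp moved 39 of them. Only 6 of the 46 passed the stricter filter.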
